A study of Homo sapiens with 22 samples.

Results

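The genes described here are the collagen chain genes of the mouse stroma in xenografts of H3122, a human ALK-positive lung adenocarcinoma cell line, grown in mice. All protein-coding genes of the mouse (mm10) table whose symbol is Col, a number, the letter a and a number were taken, which gave 44 of 54532 genes listed. FPKM, fragments scaled to the length of the gene and a size set for each library, reached 1 in at least 3 of the 20 libraries for 30 of the 44. Tumours came from 2 hosts, hHGF-NSG and NSG mice. The series title calls the hHGF-NSG mice humanized HGF-NSG mice, and NSG is an immunodeficient strain without mature lymphocytes. In each host they were therapy-naive or treated with alectinib, an inhibitor of the ALK kinase, for 2 or 6 weeks. All groups thus share the same tumour line, and both hosts lack T and B cells. The mouse table holds 3, 4 and 3 libraries of naive, 2-week and 6-week tumours in hHGF-NSG hosts and 3, 4 and 3 in NSG hosts. Values per library are given in the order of their replicate numbers (1, 3 and 4 for NSG naive). Of 22 samples, 2 are not analysed here in mouse genes (NSG naive replicate 2 and NSG 6 weeks replicate 4). The sources used here give no dose, age or site of the grafts.

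Collagens are built from chains that wind around each other as trimers, so that the chains of 1 trimer are needed together. Fibrillar collagens (types I, II, III, V, XI, XXIV and XXVII) form or nucleate the fibrils that give connective tissue its tensile strength. Type IV collagen is the network of every basement membrane, the sheet under endothelium and epithelium and around pericytes and muscle cells, and types XV and XVIII sit in that zone. FACIT collagens bind to the surface of fibrils, and the remaining types include the beaded filaments of type VI, the anchoring fibrils of type VII and the membrane-bound types XIII and XXIII. In tumours most of this matrix is made by fibroblasts, mural cells and endothelial cells of the host.

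Recovered mouse reads were 895826 to 5766509 per library, and their share of all reads was higher in treated than in naive tumours (means of 9.74%, 12.9% and 27.3% for naive, 2 weeks and 6 weeks in hHGF-NSG hosts, and 7.94%, 15.7% and 19.2% in NSG hosts). Reads of human HGF, which tell the hosts apart, numbered 13 to 79 in the hHGF-NSG libraries and 0 to 6 in the NSG libraries other than replicate 1 of the naive group, which had 43. The library labelled NSG naive replicate 1 therefore went against its label on this check. Mouse collagen calls in NSG hosts that end without it are given both ways below, and so are human collagen calls. For the other genes named below, values without it are not given. Nothing in the sources says how many animals the samples of a group came from, so the p-values rest on the spread among these libraries, which may be technical. In bulk tissue, fewer cells of a type and less RNA per cell cannot be told apart.

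Types I and III stood far above all other collagens. Averaged over the 20 libraries, Col1a1 (α1 chain of type I) had 3493 FPKM, Col3a1 (type III, its partner in soft tissue) 1564 FPKM and Col1a2 (α2 chain of type I) 1474 FPKM. Next came Col6a1 with 464 FPKM, Col12a1 with 244 FPKM, Col5a2 with 238 FPKM, Col6a2 with 224 FPKM, Col5a1 with 208 FPKM and Col4a1 with 201 FPKM. Of the 11 fibrillar members 9 passed the FPKM minimum, and of the 8 basement membrane members 5. Of the 9 FACIT members 4 passed, and of the 16 others 12. The 14 that did not pass were Col2a1, Col11a2, Col4a3, Col4a4, Col4a6, Col9a1, Col9a2, Col9a3, Col19a1, Col22a1, Col6a4, Col10a1, Col17a1 and Col25a1. Several of them, among them Col2a1, Col9a1 and Col10a1, are known from cartilage. The 6 cartilage and bone markers summed to at most 2.38 FPKM in any library, with 4 or 5 of the 6 at 0 in all libraries of each group. Just inside the minimum were Col28a1 (5 libraries at 1 FPKM or more) and Col20a1 (8 libraries), and just outside were Col9a3 (2 libraries) and Col17a1 (1 library).

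The summed basement membrane class was lower in treated tumours of both hosts, while the fibrillar sums of 2-week and naive tumours overlapped. Basement membrane genes summed to 695 ± 153 FPKM in naive, 348 ± 43.2 FPKM in 2-week and 249 ± 55.7 FPKM in 6-week tumours of hHGF-NSG hosts (SD, n = 3, 4 and 3), and to 836 ± 196, 347 ± 101 and 172 ± 19.6 FPKM in NSG hosts (SD, n = 3, 4 and 3). No treated library reached the lowest naive library of its host. Their share of all collagen FPKM was 7.36 to 8.03% in naive, 2.21 to 6.75% in 2-week and 3.91 to 6.21% in 6-week tumours of hHGF-NSG hosts, and 7.29 to 9.68%, 2.13 to 3.93% and 2.16 to 3.62% in NSG hosts. It too was below the naive range in all treated libraries. The fibrillar sum was 7051 ± 1311, 6581 ± 3134 and 3895 ± 148 FPKM in naive, 2-week and 6-week tumours of hHGF-NSG hosts and 7689 ± 3012, 10690 ± 2583 and 5395 ± 1136 FPKM in NSG hosts (SD, n = 3, 4 and 3). In NSG hosts its 6-week range overlapped the naive range, and in hHGF-NSG hosts it lay below it. The 2-week hHGF-NSG libraries had fibrillar sums of 11084, 4973, 4038 and 6228 FPKM, against 6109.5 to 8548 FPKM in naive libraries. Replicate 1 thus lay above the naive range, replicate 4 within it and replicates 2 and 3 below it. The other types had their highest means at 2 weeks, with 804 ± 101, 1143 ± 288 and 605 ± 75.7 FPKM in naive, 2-week and 6-week tumours of hHGF-NSG hosts and 879 ± 263, 1464 ± 248 and 763 ± 93.6 FPKM in NSG hosts (SD, n = 3, 4 and 3). FACIT genes summed to 478 ± 13.9, 365 ± 82.4 and 247 ± 79.5 FPKM in hHGF-NSG hosts and to 420.1 ± 165, 459 ± 96.1 and 372 ± 37.5 FPKM in NSG hosts, again for naive, 2 weeks and 6 weeks. These sums are descriptions with no test.

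**Figure D1:**
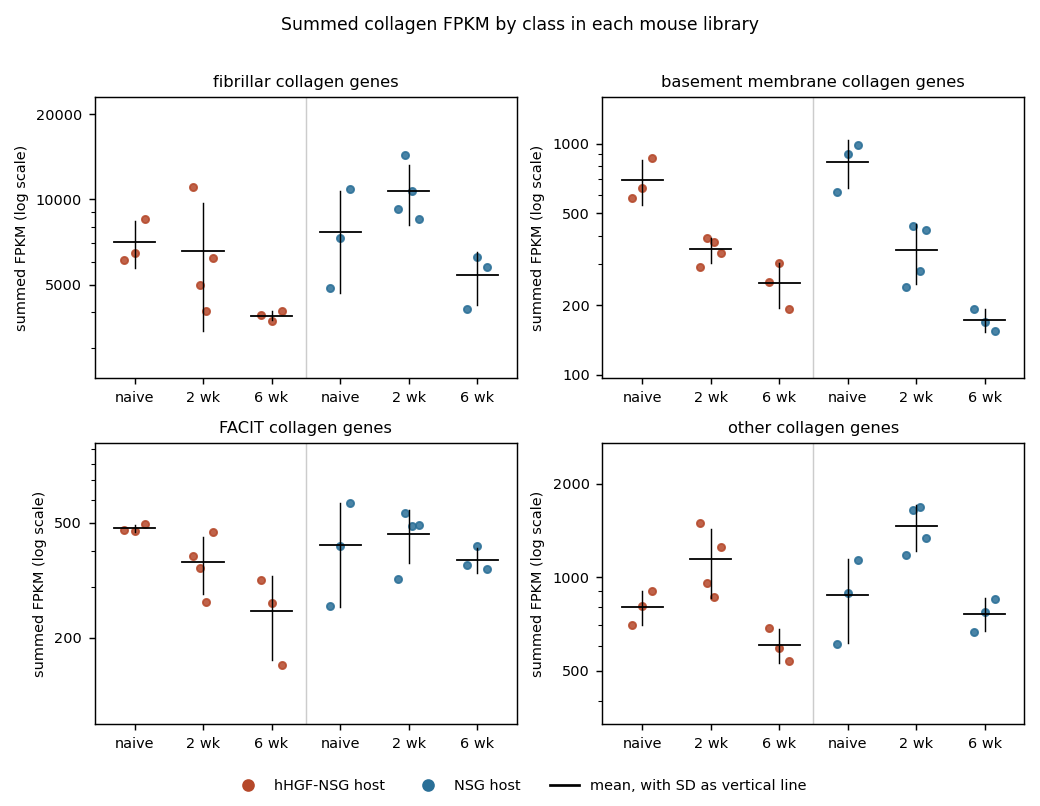
Summed FPKM of each collagen class in every mouse library (points, log axis), with the group mean (bar) and SD (line), by weeks of alectinib in hHGF-NSG and NSG hosts. The basement membrane sums of all treated libraries lie below all naive libraries of the same host, while the sums of the other types have their highest means at 2 weeks.

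Differences between groups were tested with limma on log2(FPKM + 1) over all 14287 mouse genes that passed the minimum, and a gene was called at a Benjamini-Hochberg adjusted p under 0.05. Each difference below is on that log2 scale with its standard error, and it understates the fold of genes near 1 FPKM. The 2-week and 6-week comparisons of 1 host share their naive libraries. After 2 weeks in hHGF-NSG hosts, 2 of the 30 collagens rose and 8 fell, where 7.06% of all tested genes were called (3.49% higher, 3.56% lower). The median difference of the 30 was -0.21 against 0.03 over all genes. Leaving out single libraries gave 3 to 11 calls there, the fewest without hHGF-NSG naive replicate 3. In NSG hosts at 2 weeks, 3 rose and 4 fell, where 7.8% of all genes were called (3.32% higher, 4.48% lower), with a median of 0.24 against 0.03. At 6 weeks against naive, 15 of 30 fell and 0 rose in hHGF-NSG hosts, where 17.8% of all genes were called (9.67% higher, 8.12% lower), with a median of -0.91 against 0.06. The 6-week NSG tumours had 9 lower and 2 higher, where 17.4% of all genes were called (8.81% higher, 8.59% lower), with a median of -0.47 against 0.05. The count of 0 risen collagens in hHGF-NSG hosts came with 17 of 30 at an unadjusted p under 0.05 in either direction, against 30.4% of all genes. There limma's voom fit on the recovered reads called 16 lower and 0 higher.

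Between hosts, the 4 genes that fell in NSG hosts at 2 weeks were among the 8 of hHGF-NSG hosts (100% of the NSG list and 50% of the hHGF-NSG list). At 6 weeks the 9 that fell in NSG hosts were among the 15 of hHGF-NSG hosts (100% and 60%). Col4a1, Col4a2 and Col15a1 fell in all 4 comparisons with naive tumours. The lower counts of those comparisons also hold Col28a1, the only one of the 30 that reached 1 FPKM in naive libraries alone (0 treated and 5 naive). It entered the test through the groups where it was high. The 10 that passed in no comparison were Col1a1, Col1a2, Col3a1, Col11a1, Col24a1 and Col27a1 of the fibrillar class, Col20a1 of the FACIT class, and Col6a6, Col8a2 and Col23a1. Of the 56 calls over these comparisons and those of 6 against 2 weeks, 31 held under all 26 alternatives tried (other settings and leaving out each library). The most were lost with reads thinned to the smallest library, which kept 39, and without the filter, which kept 42. The number of collagens whose treated libraries did not overlap the naive ones was 20 of 30 at 6 weeks in hHGF-NSG hosts (19 lower), against 34.1% of all genes (15.6% lower), and 14 of 30 in NSG hosts (12 lower), against 32.6% (15.1% lower).

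**Figure D2:**
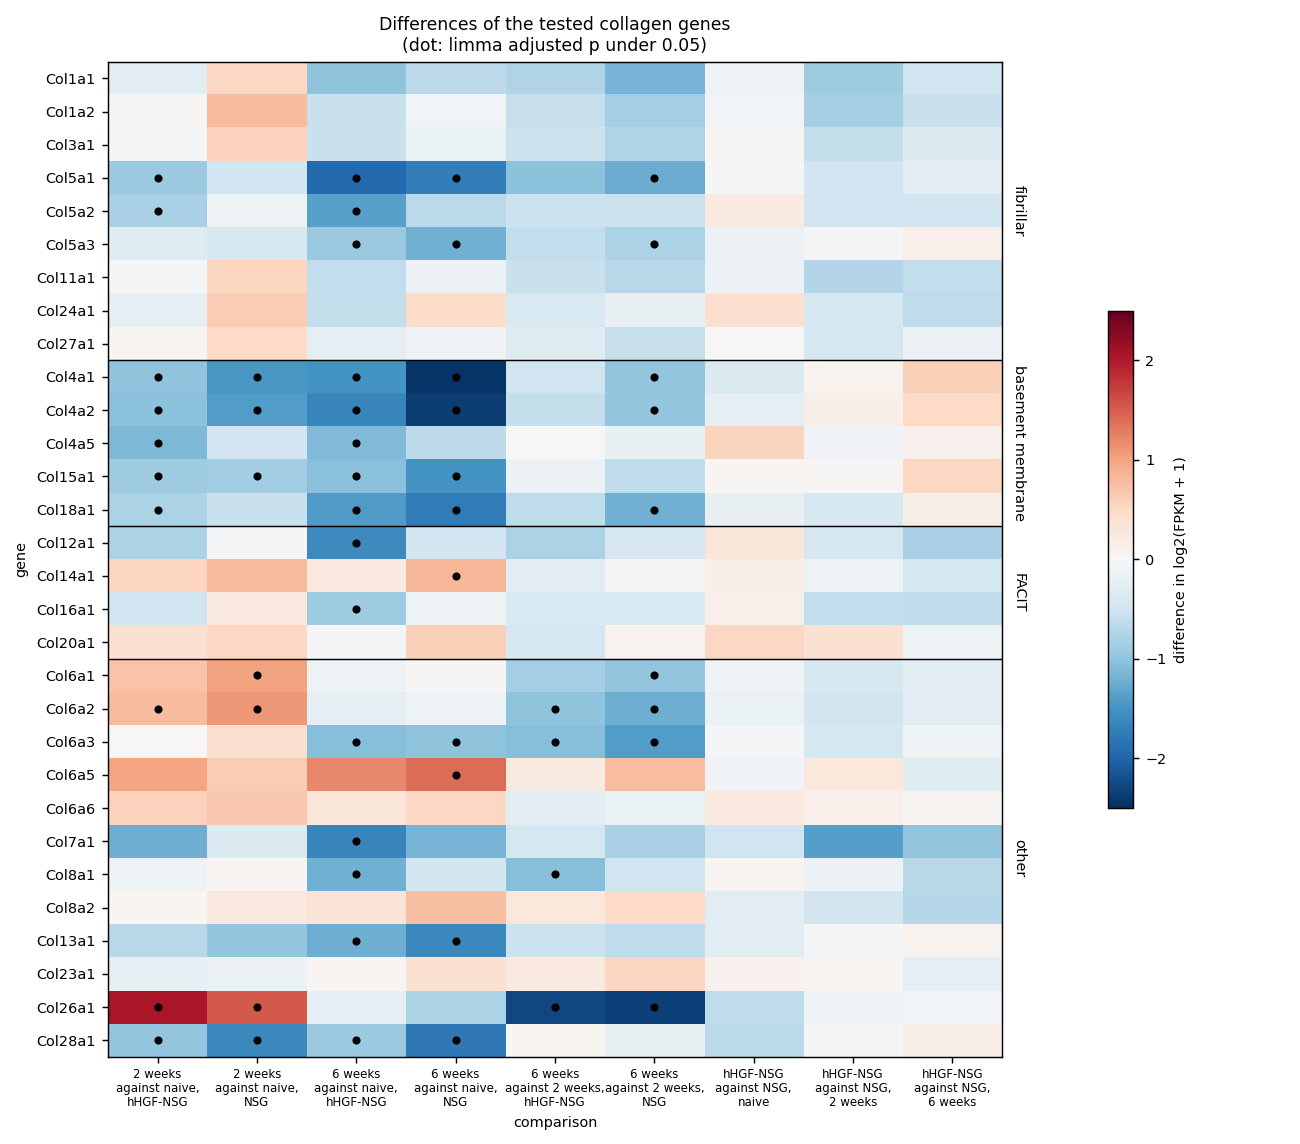
Difference in log2(FPKM + 1) for each of the 30 collagen genes (rows, by class) in 9 comparisons (columns), from blue (lower in the group named first) to red (higher), with a dot where limma's adjusted p was under 0.05. In the 4 comparisons with naive, 17 of the 20 basement membrane cells have a dot. All 17 are lower, where 3.56 to 8.59% of all genes were called lower. Col1a1, Col1a2 and Col3a1 have none, and Col26a1 has its largest differences in the comparisons that hold the 2-week groups.

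The basement membrane chains were the class with the largest share of calls against naive tumours, and every call was lower. In hHGF-NSG hosts 5 of 5 fell at 2 weeks and 5 of 5 at 6 weeks, and in NSG hosts 3 of 5 and 4 of 5. Over all mouse genes tested, 3.56% and 8.12% were called lower in hHGF-NSG hosts and 4.48% and 8.59% in NSG hosts. Of the 5 calls at 2 weeks in hHGF-NSG hosts, only that of Col15a1 held whichever single library was left out. Col4a1 encodes the α1 chain of type IV collagen and Col4a2 the α2 chain, which assemble as 1 trimer. In hHGF-NSG hosts, Col4a1 had 258, 300.5 and 408 FPKM in naive tumours, 124, 180.2, 176 and 153 FPKM at 2 weeks and 109, 145 and 87.8 FPKM at 6 weeks. In NSG hosts, Col4a1 had 301, 444 and 497 FPKM in naive tumours, 106, 195, 121 and 187 FPKM at 2 weeks and 87.5, 73.4 and 62.2 FPKM at 6 weeks. All treated libraries lay below all naive libraries of the same host. The differences at 2 and 6 weeks were -1.01 ± 0.25 (adjusted p = 0.0192) and -1.498 ± 0.26 (adjusted p = 0.000731) in hHGF-NSG hosts, and -1.45 ± 0.25 (adjusted p = 0.0013) and -2.44 ± 0.26 (adjusted p = 8.1e-06) in NSG hosts (limma). When the library labelled NSG naive replicate 1 was left out, differences in NSG hosts were -1.67 and -2.66. The 2-week call in hHGF-NSG hosts ended without naive replicate 3 or without 2-week replicate 1. Between 6 and 2 weeks, Col4a1 fell further in NSG hosts (-0.99 ± 0.25, adjusted p = 0.0308), a call that 5 of the 20 single libraries end when left out, and had -0.49 ± 0.25 (adjusted p = 0.404) in hHGF-NSG hosts.

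Col4a2 followed in the same libraries. In hHGF-NSG hosts, Col4a2 had 198, 214 and 292 FPKM in naive tumours, 89.0, 129, 124 and 114 FPKM at 2 weeks and 79.1, 98.2 and 52.2 FPKM at 6 weeks. In NSG hosts, Col4a2 had 195, 302 and 342 FPKM in naive tumours, 67.4, 143, 85.02 and 132 FPKM at 2 weeks and 59.2, 49.8 and 47.6 FPKM at 6 weeks. Treated and naive groups were again apart in both hosts, with limma differences of -1.03 ± 0.27 (adjusted p = 0.025) at 2 weeks and -1.63 ± 0.28 (adjusted p = 0.000669) at 6 weeks in hHGF-NSG hosts, and of -1.41 ± 0.27 (adjusted p = 0.00286) and -2.37 ± 0.28 (adjusted p = 2.39e-05) in NSG hosts. The 2-week call in hHGF-NSG hosts ended without naive replicate 2, naive replicate 3 or 2-week replicate 1. Between 6 and 2 weeks in NSG hosts Col4a2 differed by -0.96 ± 0.27 (adjusted p = 0.0484), a call that 13 single libraries end. The ratio of Col4a1 to Col4a2 FPKM was 1.30 to 1.68 over all 20 libraries, with group means of 1.37 to 1.51. The genes lie head to head in mm10, Col4a1 at chr8:11198423-11312826 on the minus strand and Col4a2 at chr8:11312805-11449287 on the plus strand, and their annotated starts overlap by 22 bases.

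Types XV and XVIII, the multiplexin collagens whose C-terminal fragments include endostatin, were lower as well. Col15a1 in hHGF-NSG hosts had 57.9, 66.7 and 91.5 FPKM in naive tumours, 46.8, 38.4, 44.1 and 25.4 FPKM at 2 weeks and 36.6, 32.9 and 32.5 FPKM at 6 weeks. In NSG hosts it had 70.9, 74.1 and 59.8 FPKM in naive tumours, 30.4, 39.3, 33.2 and 47.1 FPKM at 2 weeks and 23.7, 25.0 and 21.6 FPKM at 6 weeks. No treated library overlapped the naive range, and the limma differences were -0.89 ± 0.20 (adjusted p = 0.0112) and -1.04 ± 0.21 (adjusted p = 0.00212) at 2 and 6 weeks in hHGF-NSG hosts and -0.86 ± 0.20 (adjusted p = 0.0111) and -1.502 ± 0.21 (adjusted p = 0.000117) in NSG hosts. Col18a1 in hHGF-NSG hosts had 57.3, 51.6 and 68.0 FPKM in naive tumours, 30.5, 39.9, 27.6 and 38.1 FPKM at 2 weeks and 23.4, 24.3 and 17.1 FPKM at 6 weeks. In NSG hosts it had 44.6, 77.5 and 85.3 FPKM in naive tumours, 34.4, 57.3, 38.6 and 53.7 FPKM at 2 weeks and 19.6, 17.7 and 20.1 FPKM at 6 weeks. It fell at 6 weeks in both hosts (-1.41 ± 0.23, adjusted p = 0.000476 in hHGF-NSG and -1.75 ± 0.23, adjusted p = 7.51e-05 in NSG hosts) and at 2 weeks in hHGF-NSG hosts (-0.78 ± 0.22, adjusted p = 0.0373, a call that ends without any 1 of 5 libraries), while the 2-week NSG groups overlapped (-0.56 ± 0.22, adjusted p = 0.135). Col4a5, an X-linked type IV chain, was a minor chain at 3.88 FPKM on average. It fell in hHGF-NSG hosts (-1.12 ± 0.30, adjusted p = 0.0283 at 2 weeks, a call that 5 single libraries end, and -1.11 ± 0.32, adjusted p = 0.02 at 6 weeks, which 3 end), with -0.48 ± 0.30 (adjusted p = 0.365) and -0.65 ± 0.32 (adjusted p = 0.169) in NSG hosts. Col4a3, Col4a4 and Col4a6 stayed under 1 FPKM in all 20 libraries.

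Vascular basement membranes are laid down by mural and endothelial cells, whose markers were measured in the same libraries. The 10 mural and smooth muscle markers summed to 929 to 1259 FPKM in naive, 399.99 to 909 FPKM in 2-week and 262 to 379.98 FPKM in 6-week libraries of hHGF-NSG hosts, and to 747 to 1212, 562 to 936 and 292 to 327 FPKM in NSG hosts. Of the 10, 3 and 5 fell at 2 and 6 weeks in hHGF-NSG hosts and 5 and 7 in NSG hosts, and the others did not pass. Over all mouse genes tested, 3.32 to 4.48% were called in each direction at 2 weeks and 8.12 to 9.67% at 6 weeks. The 10 endothelial markers summed to 276 to 331, 215 to 315 and 221 to 317 FPKM in hHGF-NSG hosts and to 287 to 411, 222 to 274 and 187 to 219 FPKM in NSG hosts. At 2 and 6 weeks, 2 and 3 of them were lower in hHGF-NSG hosts (1 higher at 6 weeks) and 4 and 5 lower in NSG hosts. The part of these cells in the collagen differences was not tested.

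The 3 major fibrillar chains showed no call in any comparison. In NSG hosts, though, each of the 3 was lower in all 6-week libraries than in any 2-week library. Between those groups 8 of the 9 fibrillar genes had an unadjusted p under 0.05 (limma), against 17.0% of all genes, and 2 were called. In hHGF-NSG hosts, Col1a1 had 2986, 3196 and 4379 FPKM in naive tumours, 4975, 2439, 1816 and 3196 FPKM at 2 weeks and 1922, 1773 and 1514 FPKM at 6 weeks. In NSG hosts, Col1a1 had 2367, 3907 and 5861 FPKM in naive tumours, 4748, 7938, 5201 and 4301 FPKM at 2 weeks and 1887, 2951 and 2507 FPKM at 6 weeks. The 2-week and naive libraries overlapped in both hosts. Col1a1 differed by -0.26 ± 0.34 (adjusted p = 0.692) at 2 weeks and -1.01 ± 0.36 (adjusted p = 0.0617) at 6 weeks in hHGF-NSG hosts, where the 6-week and naive libraries did not overlap, and by 0.51 ± 0.34 (adjusted p = 0.4) and -0.65 ± 0.36 (adjusted p = 0.234) in NSG hosts (limma). Col1a2 had 1099, 1176 and 1596 FPKM in naive tumours, 2345, 1071, 806 and 1372 FPKM at 2 weeks and 872, 817 and 905 FPKM at 6 weeks in hHGF-NSG hosts. In NSG hosts, Col1a2 had 900.1, 1320.3 and 1983 FPKM in naive tumours, 1995, 3081, 2449.6 and 1833 FPKM at 2 weeks and 973, 1494 and 1401 FPKM at 6 weeks. Its largest difference from naive was 0.78 ± 0.32 (adjusted p = 0.145) at 2 weeks in NSG hosts, with overlapping groups. At 6 weeks in hHGF-NSG hosts Col1a2 lay below naive in all libraries, with a difference of -0.56 ± 0.34 (adjusted p = 0.284). For Col3a1, hHGF-NSG hosts had 1298, 1484 and 1672 FPKM in naive tumours, 3195, 1068, 1083 and 1158 FPKM at 2 weeks and 824, 863 and 1396 FPKM at 6 weeks, and 2-week replicate 1 stood apart. In NSG hosts, Col3a1 had 1048, 1450.2 and 2020.1 FPKM in naive tumours, 2043, 2527, 2456 and 1745 FPKM at 2 weeks and 953, 1461 and 1538 FPKM at 6 weeks. All 4 comparisons with naive overlapped, at adjusted p between 0.314 and 0.967.

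The ratio of the 2 chains of type I was lower in treated tumours. The ratio of Col1a1 to Col1a2 FPKM within a library averaged 2.73 ± 0.0156 in naive, 2.24 ± 0.0886 in 2-week and 2.02 ± 0.298 in 6-week tumours of hHGF-NSG hosts, and 2.85 ± 0.189, 2.36 ± 0.186 and 1.90 ± 0.0987 in NSG hosts (SD, n = 3, 4 and 3). All treated libraries lay below all naive libraries of their host. Protein trimers of type I hold α1 and α2 chains in a fixed proportion, and the ratios here are of RNA per length, so they do not read out the trimer. These ratios are described with no test.

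Type V, the minor fibrillar collagen that nucleates and sizes type I fibrils, held all the fibrillar calls, 2 at 2 weeks and 3 at 6 weeks in hHGF-NSG hosts, 2 at 6 weeks in NSG hosts, and 2 for 6 against 2 weeks in NSG hosts. In hHGF-NSG hosts, Col5a1 (α1 chain) had 274, 286 and 404 FPKM in naive tumours, 239, 155, 107 and 192 FPKM at 2 weeks and 88.9, 88.3 and 68.1 FPKM at 6 weeks. In NSG hosts, Col5a1 had 253, 286 and 462 FPKM in naive tumours, 156, 316, 229.9 and 257 FPKM at 2 weeks and 80.6, 106 and 108 FPKM at 6 weeks. At 6 weeks all libraries lay below all naive libraries of their host, with limma differences of -1.95 ± 0.29 (adjusted p = 0.000222) in hHGF-NSG and -1.72 ± 0.29 (adjusted p = 0.000509) in NSG hosts. At 2 weeks it was -0.93 ± 0.27 (adjusted p = 0.0464) in hHGF-NSG hosts, a call that ends without any 1 of 15 libraries, and -0.47 ± 0.27 (adjusted p = 0.328) in NSG hosts. Col5a2 had 369, 274 and 384 FPKM in naive tumours, 248, 172, 137 and 229.7 FPKM at 2 weeks and 145, 141 and 113 FPKM at 6 weeks in hHGF-NSG hosts. In NSG hosts, Col5a2 had 210.3, 285 and 415 FPKM in naive tumours, 205, 339, 282 and 263 FPKM at 2 weeks and 163, 209 and 181 FPKM at 6 weeks. It fell in hHGF-NSG hosts, with -0.82 ± 0.24 (adjusted p = 0.0428) at 2 weeks, a call that 11 single libraries end, and -1.35 ± 0.25 (adjusted p = 0.00121) at 6 weeks, while NSG hosts had -0.67 ± 0.25 (adjusted p = 0.0784) at 6 weeks with no overlap. Col5a3, a further type V chain, fell at 6 weeks in both (-0.94 ± 0.22, adjusted p = 0.00604 and -1.21 ± 0.22, adjusted p = 0.000941 for hHGF-NSG and NSG hosts). Between 6 and 2 weeks in NSG hosts, Col5a1 had -1.25 ± 0.27 (adjusted p = 0.0153), a call that 2 single libraries end, and Col5a3 had -0.80 ± 0.21 (adjusted p = 0.0365), which 6 end.

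Relative to type I, Col5a1 was lower from 2 weeks on. The ratio of Col5a1 to Col1a1 FPKM was 0.0912 ± 0.00154, 0.0577 ± 0.00675 and 0.0470 ± 0.00250 in naive, 2-week and 6-week tumours of hHGF-NSG hosts, and 0.0863 ± 0.0180, 0.0441 ± 0.0113 and 0.0405 ± 0.00404 in NSG hosts (SD, n = 3, 4 and 3). No treated library reached the naive range of its host. Relative to Col5a2, its partner in the trimer, the means were 0.946 ± 0.176, 0.871 ± 0.0790 and 0.615 ± 0.0123 in hHGF-NSG hosts and 1.11 ± 0.0983, 0.872 ± 0.0991 and 0.531 ± 0.0557 in NSG hosts. Col5a2 lies tail to tail with Col3a1, 24614 bases apart on chromosome 1, and the pair differed in calls, with Col3a1 called in none. The minor fibrillar chains Col11a1 (27.1 FPKM on average), Col24a1 (1.14 FPKM) and Col27a1 (3.46 FPKM) passed in no comparison.

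**Figure D3:**
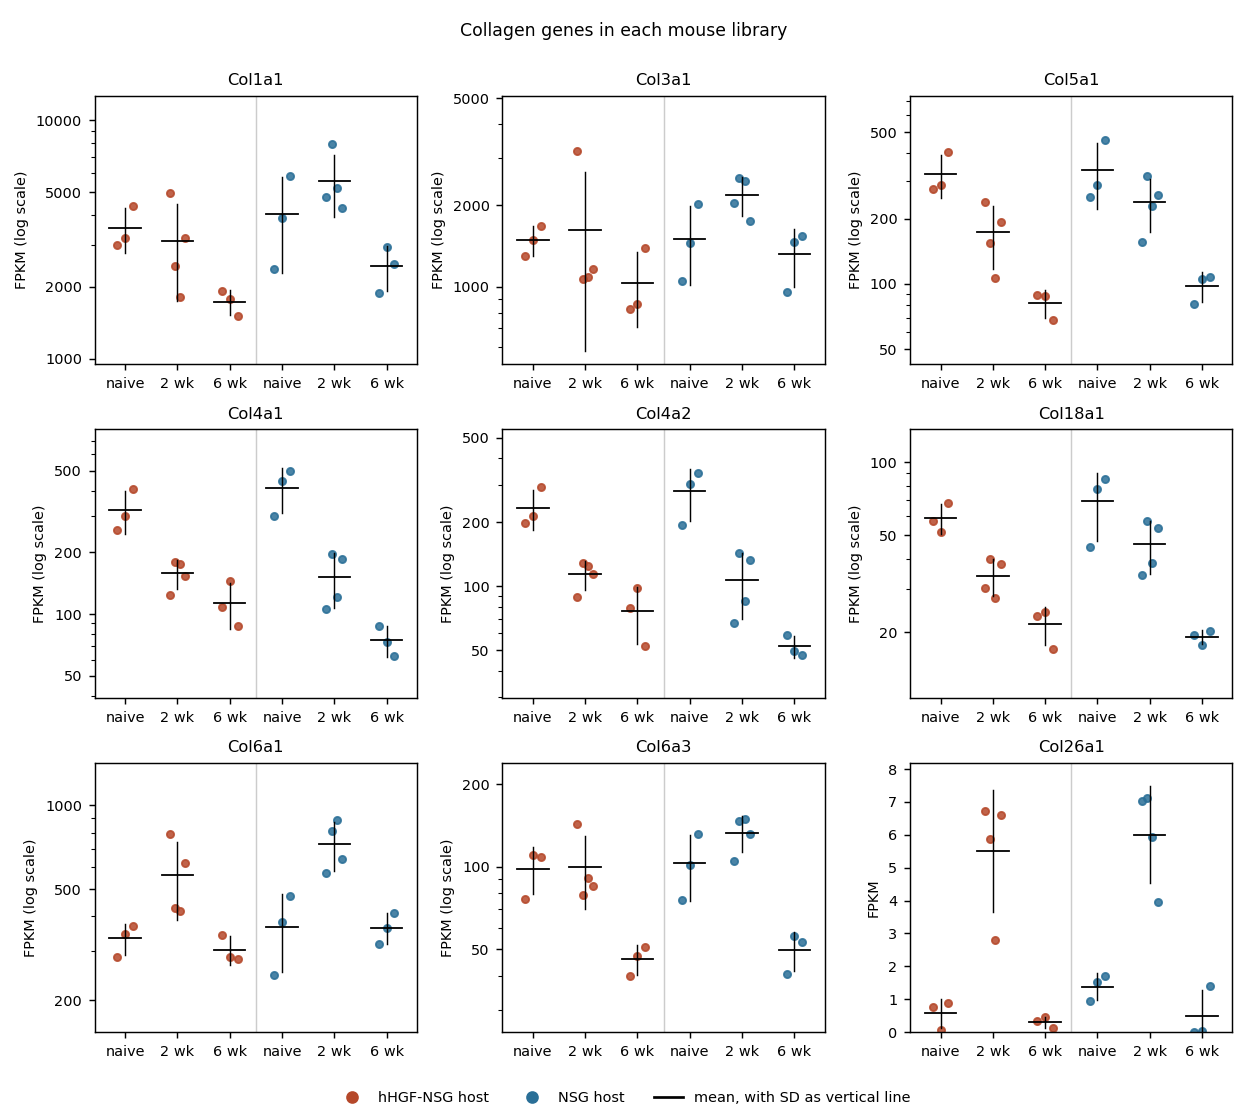
FPKM of 9 collagen genes in every mouse library (points), with the group mean (bar) and SD (line), by weeks of alectinib in hHGF-NSG and NSG hosts; axes are logarithmic except for Col26a1. The means of Col4a1, Col4a2 and Col5a1 are lower in the treated groups. Col1a1 and Col3a1 overlap between 2-week and naive groups, Col6a1 has its highest means at 2 weeks, and Col26a1 is high at 2 weeks alone.

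The 11 fibroblast markers summed to 1034 to 1106 FPKM in naive, 1418 to 2725 FPKM in 2-week and 1509.9 to 2252 FPKM in 6-week libraries of hHGF-NSG hosts, and to 699 to 1015, 1427 to 2269.5 and 1671 to 2342 FPKM in NSG hosts. Of the 11, 3 rose at 2 weeks and 3 at 6 weeks in hHGF-NSG hosts, and 3 and 5 in NSG hosts. The others did not pass. Called higher over all mouse genes tested were 3.32 to 3.49% at 2 weeks and 8.81 to 9.67% at 6 weeks. All treated libraries stood above all naive libraries of their host in the fibroblast marker sum, and its part in the fibrillar values was not tested. The 6 adipocyte markers summed to 191 to 572, 430.2 to 1981 and 1808 to 3659 FPKM in naive, 2-week and 6-week tumours of hHGF-NSG hosts and to 126 to 497, 265 to 621 and 1781 to 2062 FPKM in NSG hosts. At 6 weeks 6 of 6 rose in each host. Their part in the 6-week collagen differences was not tested.

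Among FACIT collagens, which decorate the fibril surface, 2 of 4 fell at 6 weeks in hHGF-NSG hosts and 1 rose in NSG hosts. Col12a1, which bridges type I fibrils to the surrounding matrix, had 368, 334 and 341 FPKM in naive tumours, 172, 227, 129 and 319 FPKM at 2 weeks and 173, 142 and 61.4 FPKM at 6 weeks in hHGF-NSG hosts. In NSG hosts, Col12a1 had 184, 281 and 425 FPKM in naive tumours, 174, 314, 290.4 and 334 FPKM at 2 weeks and 207, 232 and 172 FPKM at 6 weeks. Only the hHGF-NSG groups were apart, and the 6-week difference there was -1.59 ± 0.37 (adjusted p = 0.0058) (limma), against -0.47 ± 0.37 (adjusted p = 0.428) in NSG hosts. Whether the responses differed is tested below. Col14a1 (undulin) had 59.9, 88.4 and 88.4 FPKM in naive tumours, 162, 91.4, 105 and 105 FPKM at 2 weeks and 109, 94.6 and 77.2 FPKM at 6 weeks in hHGF-NSG hosts. In NSG hosts, Col14a1 had 44.0, 86.4 and 92.1 FPKM in naive tumours, 102, 153, 137 and 106 FPKM at 2 weeks and 114, 133 and 130.2 FPKM at 6 weeks. Its NSG difference at 6 weeks was 0.82 ± 0.26 (adjusted p = 0.0368), a call that ended without the library labelled NSG naive replicate 1 (0.49, adjusted p = 0.182) and without 6-week replicate 1, 2 or 3. Col16a1 fell at 6 weeks in hHGF-NSG hosts (-0.88 ± 0.29, adjusted p = 0.0408), which 5 single libraries end, with 34.0, 25.7 and 21.0 FPKM at 6 weeks and 42.6, 44.8 and 63.1 FPKM in naive tumours. Col20a1 averaged 0.883 FPKM and passed nowhere.

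Type VI collagen, whose α1, α2 and α3 chains form beaded filaments near cell surfaces, moved in both directions, with Col6a2 higher at 2 weeks and Col6a3 lower at 6 weeks in both hosts. In hHGF-NSG hosts, Col6a1 had 286, 346 and 369 FPKM in naive tumours, 789, 430.3, 419.6 and 619.7 FPKM at 2 weeks and 344, 285 and 282 FPKM at 6 weeks. In NSG hosts, Col6a1 had 246, 382 and 474 FPKM in naive tumours, 572, 807, 886 and 641 FPKM at 2 weeks and 318, 365 and 412 FPKM at 6 weeks. The 2-week libraries stood above all naive libraries in both hosts. The difference was 0.72 ± 0.24 (adjusted p = 0.0795) in hHGF-NSG hosts, short of the threshold, and 1.01 ± 0.24 (adjusted p = 0.0139) in NSG hosts (limma), where the call ended without the library labelled NSG naive replicate 1 (0.75, adjusted p = 0.0736) or without 2-week replicate 3. Col6a2 had 127, 153 and 188 FPKM in naive tumours, 382, 223, 209.8 and 284 FPKM at 2 weeks and 150.4, 128 and 120.1 FPKM at 6 weeks in hHGF-NSG hosts. In NSG hosts, Col6a2 had 126, 183 and 225 FPKM in naive tumours, 319, 419, 417 and 334 FPKM at 2 weeks and 130.03, 151 and 203 FPKM at 6 weeks. Its 2-week libraries were also all above naive, with 0.79 ± 0.23 (adjusted p = 0.043) in hHGF-NSG hosts, a call that 9 single libraries end, and 1.09 ± 0.23 (adjusted p = 0.00634) in NSG hosts (0.86, adjusted p = 0.0344 without NSG naive replicate 1).

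At 6 weeks both overlapped the naive range again. Against 2 weeks, where 1.08% of all genes were called in hHGF-NSG hosts (0.714% higher, 0.371% lower) and 3.89% in NSG hosts (2.39% higher, 1.5% lower), 4 of 30 collagens fell in hHGF-NSG hosts and 9 of 30 in NSG hosts, with 0 higher in either (limma). An unadjusted p under 0.05 was reached by 12 in hHGF-NSG hosts (13.6% of all genes) and 18 in NSG hosts (17.0%), and voom called 6 and 12 lower and 0 higher. Col6a2 was among them in both hosts (-1.01 ± 0.23, adjusted p = 0.0419 in hHGF-NSG hosts, which 8 single libraries end, and -1.22 ± 0.23, adjusted p = 0.00696 in NSG hosts, which ended without 6-week replicate 1), and Col6a1 in NSG hosts (-0.98 ± 0.24, adjusted p = 0.0292, which 5 single libraries end). Col6a3 was not called at 2 weeks. In hHGF-NSG hosts, Col6a3 had 76.3, 110.2 and 109 FPKM in naive tumours, 143, 79.2, 90.9 and 85.3 FPKM at 2 weeks and 39.9, 47.4 and 50.8 FPKM at 6 weeks. In NSG hosts, Col6a3 had 75.7, 102 and 131 FPKM in naive tumours, 105, 147, 149 and 132 FPKM at 2 weeks and 40.7, 55.8 and 52.9 FPKM at 6 weeks. All 6-week libraries were below all naive libraries of their host, with -1.07 ± 0.23 (adjusted p = 0.00366) and -1.01 ± 0.23 (adjusted p = 0.00559) in hHGF-NSG and NSG hosts. Against 2 weeks, Col6a3 had -1.06 (limma adjusted p = 0.0277) in hHGF-NSG hosts, which 5 single libraries end. In NSG hosts it had -1.40 (adjusted p = 0.00209), and Col18a1 had -1.19 (adjusted p = 0.00663). Both NSG calls held under all 26 alternatives. Col8a1 had -1.07 (adjusted p = 0.0362) against 2 weeks in hHGF-NSG hosts, which 6 single libraries end. The ratio of Col6a3 to Col6a1 FPKM was 0.267 to 0.318 in naive, 0.138 to 0.217 in 2-week and 0.116 to 0.180 in 6-week tumours of hHGF-NSG hosts, and 0.266 to 0.307, 0.169 to 0.206 and 0.128 to 0.153 in NSG hosts. The ratio of Col6a1 to Col6a2, genes 85161 bases apart on chromosome 10, was 1.79 to 2.44 over all libraries.

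**Figure D4:**
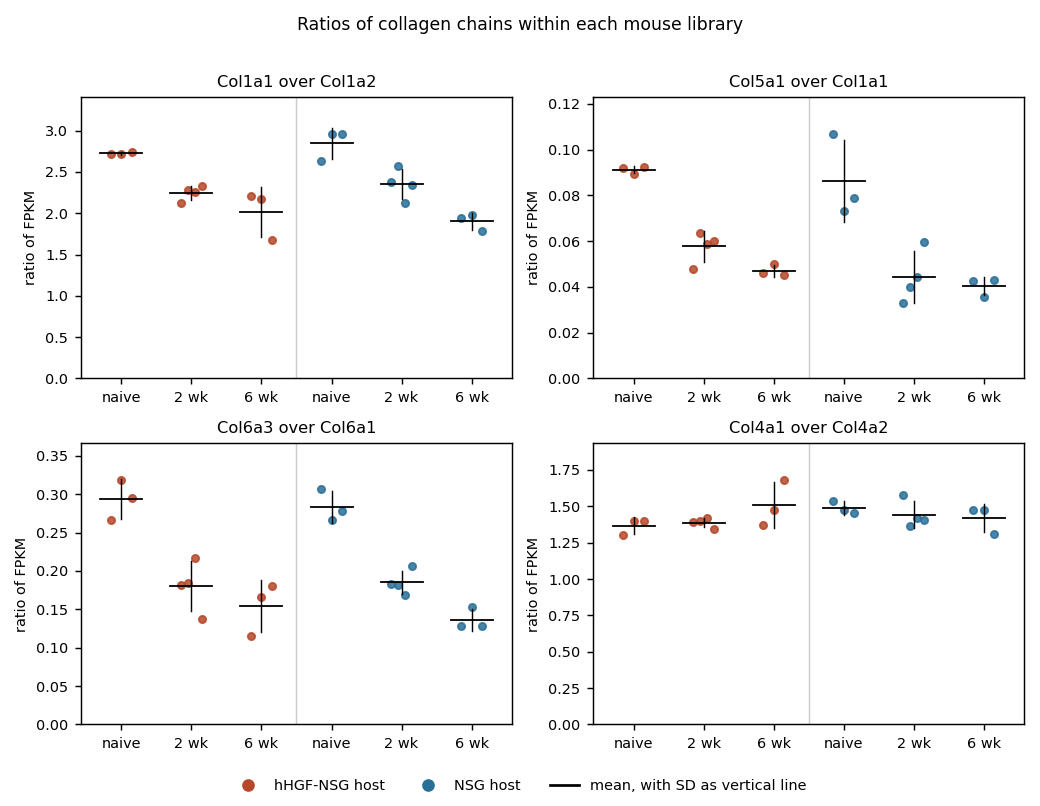
Ratio of FPKM between 2 collagen genes within each mouse library (points), with the group mean (bar) and SD (line), for 4 pairs by weeks of alectinib in hHGF-NSG and NSG hosts. Col1a1 over Col1a2, Col5a1 over Col1a1 and Col6a3 over Col6a1 are lower in all treated libraries than in all naive libraries of the same host, and Col4a1 over Col4a2 stays between 1.30 and 1.68.

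The other types held the members with the largest differences at 2 weeks. Col26a1, a collagen with little-studied function, had 0.757, 0.0723 and 0.888 FPKM in naive tumours, 6.74, 5.88, 2.79 and 6.61 FPKM at 2 weeks and 0.330, 0.452 and 0.112 FPKM at 6 weeks in hHGF-NSG hosts. In NSG hosts, Col26a1 had 0.931, 1.52 and 1.71 FPKM in naive tumours, 7.03, 7.11, 5.92 and 3.94 FPKM at 2 weeks and 0, 0.0352 and 1.41 FPKM at 6 weeks. The 2-week groups were apart from naive and from 6 weeks in both hosts. The differences were 2.04 ± 0.32 (adjusted p = 0.000966) and 1.54 ± 0.32 (adjusted p = 0.00592) against naive for hHGF-NSG and NSG hosts, and 6 weeks against 2 weeks gave -2.28 ± 0.32 (adjusted p = 0.00171) and -2.34 ± 0.32 (adjusted p = 0.001) (limma). The NSG call at 2 weeks ended with a pseudocount of 0.1 and with reads thinned to the smallest library. Col28a1, which is known from peripheral nerve, had 0.361, 2.53 and 2.26 FPKM in naive tumours, 0.437, 0.409, 0.141 and 0.122 FPKM at 2 weeks and 0.338, 0.323 and 0.280 FPKM at 6 weeks in hHGF-NSG hosts. In NSG hosts, Col28a1 had 3.01, 2.99 and 3.01 FPKM in naive tumours, 0.264, 0.236, 0.272 and 0.526 FPKM at 2 weeks and 0.225, 0.293 and 0 FPKM at 6 weeks. Its 5 libraries at 1 FPKM or more were all naive, and treated libraries reached at most 0.526 FPKM, so the minimum itself favoured a fall. In the fit with no minimum its differences were -1.602 (adjusted p = 0.00156) at 2 weeks and -1.78 (adjusted p = 0.000529) at 6 weeks in NSG hosts. In hHGF-NSG hosts they were -0.98 (adjusted p = 0.0395) and -0.93 (adjusted p = 0.0333). There naive replicate 1 lay among the 2-week values, and each call of the fit with the minimum ended without any 1 of 5 libraries. Both hHGF-NSG calls also ended with a pseudocount of 0.1 and with reads thinned to the smallest library. The 2-week call there ended with the replicate number as a block as well. The 6 Schwann cell markers summed to 14.4 to 33.3 FPKM at 6 weeks and 8.36 to 32.3 FPKM in naive tumours of hHGF-NSG hosts, and to 8.07 to 15.6 FPKM at 6 weeks and 8.97 to 26.4 FPKM in naive tumours of NSG hosts, and the part of these cells was not tested.

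Col13a1, a transmembrane collagen, was low (2.08 FPKM on average) and fell at 6 weeks in both hosts (-1.23 ± 0.35, adjusted p = 0.021 and -1.61 ± 0.35, adjusted p = 0.00392 for hHGF-NSG and NSG hosts, the hHGF-NSG call ending without any 1 of 3 libraries). Col8a1, a short-chain collagen of vessel walls, had 90.7, 80.8 and 47.1 FPKM at 6 weeks and 164, 154 and 171 FPKM in naive tumours of hHGF-NSG hosts, a difference of -1.20 ± 0.25 (adjusted p = 0.0025), with -0.46 ± 0.25 (adjusted p = 0.224) in NSG hosts. Col7a1, the anchoring fibril collagen, had 12.1, 8.33 and 19.2 FPKM in naive tumours, 6.87, 5.55, 2.92 and 4.67 FPKM at 2 weeks and 3.24, 3.06 and 3.56 FPKM at 6 weeks in hHGF-NSG hosts. In NSG hosts, Col7a1 had 7.44, 25.7 and 30.1 FPKM in naive tumours, 10.6, 22.6, 13.3 and 12.0 FPKM at 2 weeks and 7.59, 10.01 and 5.53 FPKM at 6 weeks. It fell at 6 weeks in hHGF-NSG hosts (-1.66 ± 0.40, adjusted p = 0.00741) and had -1.17 ± 0.40 (adjusted p = 0.0523) in NSG hosts. The 6 keratinocyte markers, of a cell type that makes type VII collagen in skin, summed to 3.49 to 3.85 FPKM at 6 weeks and 9.995 to 26.5 FPKM in naive tumours of hHGF-NSG hosts. In NSG hosts they summed to 1.71 to 3.69 FPKM at 6 weeks and 9.80 to 24.0 FPKM in naive tumours. Only 2 of the 6 passed the FPKM minimum, and their part in the Col7a1 values was not tested. Col6a5 was higher at 6 weeks in NSG hosts (1.40 ± 0.44, adjusted p = 0.0329), a call that ended without the library labelled NSG naive replicate 1 (1.08, adjusted p = 0.125) and without any 1 of 4 other libraries. Col6a6 (1.91 FPKM on average), Col8a2 (31.1 FPKM), the partner of Col8a1, and the transmembrane Col23a1 (8.01 FPKM) passed in no comparison.

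Between hosts no collagen passed. In naive tumours 0 of 30 were called for hHGF-NSG against NSG hosts, where 0.042% of all genes were called, and 1 had an unadjusted p under 0.05, as 10.1% of all genes did. At 2 weeks 0 of 30 were called, where 0.371% of all genes were called, and 9 had an unadjusted p under 0.05, as 7.85% of all genes did. At 6 weeks 0 of 30 were called, where 0.252% of all genes were called, and 6 had an unadjusted p under 0.05, as 4.95% of all genes did. The voom fit called 0, 1 and 0 in naive, 2-week and 6-week tumours. The 1 was Col7a1, singled out here after its values were seen, with 6.87, 5.55, 2.92 and 4.67 FPKM in hHGF-NSG hosts and 10.6, 22.6, 13.3 and 12.0 FPKM in NSG hosts at 2 weeks. Its limma difference was -1.37 ± 0.35 (adjusted p = 0.141), with no overlap, and it passed when the library labelled NSG naive replicate 1 was left out. Whether treatment responses differed between hosts was tested with an F-test of both treatment-by-host terms, which called 0 of 30 (lowest adjusted p 0.922), where 0.021% of all genes were called. None had an unadjusted p under 0.05, against 5.45% of all genes, and voom called 0. A call in 1 host and not in the other, as for Col12a1, Col5a2 or Col8a1, was thus not shown to be a difference between hosts.

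Part of the genes that modify, fold and induce collagen fell at 6 weeks. Of 21 such genes tested, 2 rose and 2 fell at 2 weeks in hHGF-NSG hosts and 8 fell at 6 weeks (median difference -0.39, against 0.06 over all genes), and in NSG hosts 3 rose and 1 fell at 2 weeks and 6 fell at 6 weeks (median -0.53, against 0.05), while the others did not pass. Plod2, a lysyl hydroxylase that prepares telopeptides for cross-linking, fell in all 4 comparisons with naive, with 6.998 ± 0.890 FPKM at 6 weeks and 17.8 ± 5.35 FPKM in naive tumours of hHGF-NSG hosts (SD, n = 3 each; -1.20 ± 0.23, adjusted p = 0.00136) and -0.70 ± 0.23 (adjusted p = 0.0403) in NSG hosts. Creb3l1, a transcription factor that drives collagen gene expression in bone, fell at 6 weeks, with 17.7 ± 2.03 FPKM at 6 weeks and 46.7 ± 13.0 FPKM in naive tumours of hHGF-NSG hosts, and 20.9 ± 1.56 FPKM at 6 weeks and 57.8 ± 17.4 FPKM in naive tumours of NSG hosts (SD, n = 3 each; -1.32 ± 0.22, adjusted p = 0.000541 and -1.39 ± 0.22, adjusted p = 0.000332). Fkbp10, a prolyl isomerase of the endoplasmic reticulum, fell too (-0.91 ± 0.20, adjusted p = 0.00367 in hHGF-NSG and -1.02 ± 0.20, adjusted p = 0.00161 in NSG hosts). All mouse genes tested stand beside this list and those that follow. Of them, 3.32 to 4.48% were called in each direction at 2 weeks and 8.12 to 9.67% at 6 weeks.

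Of the lysyl oxidases, Lox and Loxl2 fell, and Loxl4 rose at 2 weeks. Of 11 processing and cross-linking genes, 2 rose and 3 fell at 2 weeks and 0 rose and 5 fell at 6 weeks (median -0.72) in hHGF-NSG hosts. In NSG hosts 3 rose and 3 fell at 2 weeks and 0 rose and 4 fell at 6 weeks (median -0.58). Loxl2, a lysyl oxidase of basement membrane and fibrillar matrix, had 20.9 ± 1.06 FPKM at 6 weeks and 115 ± 28.5 FPKM in naive tumours of hHGF-NSG hosts (SD, n = 3 each; -2.37 ± 0.26, adjusted p = 1.27e-05), and 19.5 ± 1.06 FPKM at 6 weeks and 99.9 ± 31.5 FPKM in naive tumours of NSG hosts (SD, n = 3 each; -2.26 ± 0.26, adjusted p = 1.6e-05). Lox, which starts collagen cross-links, fell at 2 weeks (-1.32 ± 0.18, adjusted p = 0.000308 in hHGF-NSG and -0.94 ± 0.18, adjusted p = 0.00357 in NSG hosts) and at 6 weeks (-1.79 ± 0.20, adjusted p = 1.27e-05 and -1.43 ± 0.20, adjusted p = 8.66e-05). Loxl4 rose at 2 weeks (1.51 ± 0.33, adjusted p = 0.0098 in hHGF-NSG and 1.28 ± 0.33, adjusted p = 0.022 in NSG hosts).

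Other partners of collagen did not share 1 direction. Of 15 basement membrane partners, 1 rose and 1 fell at 2 weeks in each host, and at 6 weeks 5 fell in hHGF-NSG hosts (median -0.41) and 6 fell and 1 rose in NSG hosts (median -0.49). At 2 weeks 3.32 to 4.48% of all mouse genes were called in each direction, so 1 call in a list of 15 does not set it apart. The partners called at 2 weeks were Nid2 (nidogen 2, which links laminin to type IV collagen), which fell (-1.19 ± 0.25, adjusted p = 0.00721 and -1.49 ± 0.25, adjusted p = 0.0011 in hHGF-NSG and NSG hosts), and Lama2 (laminin α2, of muscle and nerve basement membrane), which rose (0.80 ± 0.18, adjusted p = 0.0119 and 1.26 ± 0.18, adjusted p = 0.000295). Of 15 fibril organisers, 4 rose and 2 fell in hHGF-NSG hosts at both times, and in NSG hosts 4 rose and 1 fell at 2 weeks and 4 rose and 2 fell at 6 weeks (medians of -0.02 and 0.25 at 6 weeks in hHGF-NSG and NSG hosts). The 4 that rose in all comparisons with naive were Dcn (decorin), Ogn (osteoglycin), Omd (osteomodulin) and Prelp, small leucine-rich proteoglycans that bind fibrils. Omd differed by 3.497 ± 0.38 (adjusted p = 1.32e-05) and 3.63 ± 0.38 (adjusted p = 7.2e-06) at 6 weeks in hHGF-NSG and NSG hosts. Dcn also stands in the fibroblast marker list, as does Lum, and Dcn had 395 ± 129.9 FPKM at 6 weeks and 157 ± 16.3 FPKM in naive tumours of hHGF-NSG hosts, and 495 ± 99.0 FPKM at 6 weeks and 123 ± 18.8 FPKM in naive tumours of NSG hosts (SD, n = 3 each).

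Several matrix metalloproteinases fell, and cathepsin K rose in NSG hosts. Of 15 breakdown genes, 4 fell at 2 weeks and 4 fell and 1 rose at 6 weeks in hHGF-NSG hosts (median -0.68 at 6 weeks), and in NSG hosts 4 fell and 1 rose at 2 weeks and 4 fell and 3 rose at 6 weeks (median -0.2). Beside these and the counts below stand the shares over all mouse genes, 3.32 to 4.48% in each direction at 2 weeks and 8.12 to 9.67% at 6 weeks. Mmp13, a collagenase of fibrillar collagen, had 3.23 ± 1.03 FPKM at 6 weeks and 104 ± 53.9 FPKM in naive tumours of hHGF-NSG hosts, and 3.05 ± 1.48 FPKM at 6 weeks and 112 ± 84.5 FPKM in naive tumours of NSG hosts (SD, n = 3 each; -4.53 ± 0.63, adjusted p = 0.000127 and -4.58 ± 0.63, adjusted p = 9e-05). Mmp8, the neutrophil collagenase, also fell in all 4 comparisons with naive. The 6 neutrophil markers summed to 10.2 to 13.5 FPKM at 6 weeks and 42.2 to 218 FPKM in naive tumours of hHGF-NSG hosts, and to 10.3 to 19.2 FPKM at 6 weeks and 172 to 297 FPKM in naive tumours of NSG hosts. The part of these cells was not tested. Ctsk, cathepsin K, rose in NSG hosts (1.52 ± 0.33, adjusted p = 0.00706 at 2 weeks and 1.99 ± 0.35, adjusted p = 0.000641 at 6 weeks). The F-test of a difference in response between hosts called 0 of the 15 breakdown genes. A rise of Ctsk particular to NSG hosts was thus not shown. In the direct comparison of hHGF-NSG against NSG hosts, 1 of the 15 was lower at 6 weeks, where 0.252% of all genes were called. At 2 weeks 1 collagen receptor was higher and 1 gene of collagen modification and folding lower, where 0.371% of all genes were called. Among 8 collagen receptors, 2 fell at 2 weeks and 3 fell and 1 rose at 6 weeks in hHGF-NSG hosts, and 3 and 2 fell in NSG hosts. Of these, Itgb1 (integrin β1) and Itga2 (integrin α2) fell in all 4 comparisons with naive. Itgb1 had -1.06 ± 0.17 (adjusted p = 0.000329) and -0.75 ± 0.17 (adjusted p = 0.0041) at 6 weeks in hHGF-NSG and NSG hosts. Of 16 genes of TGF-beta signalling, the pathway that induces collagen genes in fibroblasts, 1 rose and 1 fell at 2 weeks and 2 rose and 5 fell at 6 weeks in hHGF-NSG hosts, and in NSG hosts 2 rose and 2 fell at 2 weeks and 4 rose and 3 fell at 6 weeks (medians of -0.43 and -0.08 at 6 weeks in hHGF-NSG and NSG hosts). Tgfb3 (the ligand TGF-beta 3) rose in all 4 comparisons with naive, with 1.26 ± 0.21 (adjusted p = 0.00046) and 1.23 ± 0.21 (adjusted p = 0.000491) at 6 weeks in hHGF-NSG and NSG hosts.

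In the same libraries the human table gives the collagens of the tumour cells. Of 44, 18 passed the FPKM minimum. The sources used here do not say how reads were assigned to a species, so a share of mouse reads in human genes cannot be told apart. Of all 16029 human genes tested, limma called 54.1% at 2 weeks and 51.3% at 6 weeks in hHGF-NSG hosts, and 56.1% and 57.6% in NSG hosts. In hHGF-NSG hosts 27.5% and 25.9% were higher and 26.6% and 25.5% lower, and in NSG hosts 28.1% and 28.8% were higher and 28.0% and 28.8% lower. Of the 18 collagens 14 and 15 were called in hHGF-NSG hosts (4 and 7 higher, 10 and 8 lower) and 12 and 13 in NSG hosts (4 and 6 higher, 8 and 7 lower). Of the 18, COL4A1, COL5A1, COL7A1 and COL27A1 reached 1 FPKM in naive libraries only, and COL5A2, COL9A2 and COL21A1 in treated libraries only. These 7 entered the test through the groups where they were high, so the counts are a description. Without the library labelled NSG naive replicate 1, 10 were called at 2 weeks in NSG hosts, where calls ended for COL18A1 (0.51 and adjusted p = 0.0459 with it, 0.49 and 0.0856 without) and COL6A2 (-0.56 and adjusted p = 0.0409 with it, -0.52 and 0.0866 without). The COL6A2 call at 6 weeks in hHGF-NSG hosts ended as well (-0.63 both ways, adjusted p = 0.0479 with it and 0.054 without).

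Naive replicate 2 of NSG hosts and naive replicate 3 of hHGF-NSG hosts stood apart in several genes. Without NSG naive replicate 2, 3 rose and 9 fell at 2 weeks and 6 rose and 9 fell at 6 weeks in NSG hosts. Without hHGF-NSG naive replicate 3, 5 rose and 8 fell at 2 weeks and 7 rose and 7 fell at 6 weeks in hHGF-NSG hosts.

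Human COL4A2 fell in all 4 comparisons with naive, as mouse Col4a2 did, and COL4A1 fell in 3 of them. In hHGF-NSG hosts, COL4A1 had 1.66, 1.95 and 5.74 FPKM in naive tumours, 0.152, 0.248, 0.284 and 0.259 FPKM at 2 weeks and 0.811, 0.688 and 0.636 FPKM at 6 weeks. In NSG hosts, COL4A1 had 1.70, 0.374, 1.88 and 1.87 FPKM in naive tumours, 0.0948, 0.603, 0.533 and 0.302 FPKM at 2 weeks and 0.523, 0.587, 0.384 and 0.917 FPKM at 6 weeks. The hHGF-NSG groups were apart, and the NSG groups overlapped through naive replicate 2. The differences at 2 and 6 weeks were -1.603 ± 0.27 (adjusted p = 4.05e-05) and -1.13 ± 0.29 (adjusted p = 0.00255) in hHGF-NSG hosts, and -0.78 ± 0.25 (adjusted p = 0.0116) and -0.56 ± 0.25 (adjusted p = 0.0598) in NSG hosts (limma). Without naive replicate 2, the 6-week NSG difference was -0.82 (adjusted p = 0.00446), and without naive replicate 3, the 6-week hHGF-NSG difference was -0.71 (adjusted p = 0.0248). COL4A1 was at 1 FPKM or more in 0 treated and 6 naive libraries. With no minimum, its adjusted p was 0.000171 and 0.00756 at 2 and 6 weeks in hHGF-NSG hosts and 0.0294 and 0.126 in NSG hosts. COL4A2 had 3.66, 2.93 and 9.70 FPKM in naive tumours, 0.854, 0.760, 0.983 and 0.991 FPKM at 2 weeks and 1.64, 1.55 and 1.62 FPKM at 6 weeks in hHGF-NSG hosts. In NSG hosts, COL4A2 had 2.82, 1.44, 3.49 and 3.60 FPKM in naive tumours, 0.905, 1.27, 1.12 and 1.14 FPKM at 2 weeks and 1.26, 1.25, 0.801 and 1.56 FPKM at 6 weeks. Its differences were -1.62 ± 0.25 (adjusted p = 1.28e-05) and -1.16 ± 0.26 (adjusted p = 0.00101) in hHGF-NSG hosts and -0.82 ± 0.23 (adjusted p = 0.00451) and -0.76 ± 0.23 (adjusted p = 0.00776) in NSG hosts. Without naive replicate 3, the 6-week hHGF-NSG difference of COL4A2 was -0.72 (adjusted p = 0.00611).

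Col4a2 fell in all 4 comparisons with naive in mouse and COL4A2 in human, and the stretch between the starts of the human pair is shown for that reason. In human the genes lie head to head and are read from a shared, bidirectional promoter. The reference sequence (RefSeq, GRCh38.p14), read 5′ to 3′ toward COL4A2 on the plus strand, chr13:110307158-110307283, holds 126 bases, with CCAAT and the GC box GGGCGG in capitals.
COL4A1-COL4A2: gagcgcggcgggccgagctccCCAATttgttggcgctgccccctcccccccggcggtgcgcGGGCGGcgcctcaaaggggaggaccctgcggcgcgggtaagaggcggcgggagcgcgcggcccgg
A CCAAT box (CCAAT on either strand) stood in 34.61% and a GC box (GGGCGG on either strand) in 44.95% of 35116 RefSeq human promoter windows of 300 bases, and the motifs do not overlap here. Mouse promoter sequence was not used here.

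Other human chains moved in either direction. COL4A3 and COL4A4, the type IV chains of kidney and lung basement membrane, rose at 6 weeks. In hHGF-NSG hosts, COL4A3 had 1.497, 2.22 and 2.39 FPKM in naive tumours, 1.62, 1.39, 2.27 and 1.12 FPKM at 2 weeks and 3.62, 2.61 and 5.70 FPKM at 6 weeks. In NSG hosts, COL4A3 had 1.45, 0.646, 0.852 and 0.781 FPKM in naive tumours, 1.47, 1.11, 1.46 and 1.32 FPKM at 2 weeks and 3.83, 4.58, 1.89 and 4.94 FPKM at 6 weeks. The 6-week libraries were all above naive in both hosts (0.68 ± 0.24, adjusted p = 0.0242 in hHGF-NSG hosts, a call that ended without naive replicate 1 or 6-week replicate 3, and 1.28 ± 0.21, adjusted p = 2.87e-05 in NSG hosts). COL4A4 rose by 0.71 ± 0.22 (adjusted p = 0.0095) and 1.07 ± 0.19 (adjusted p = 6.15e-05). COL21A1, a FACIT collagen, had 2.47, 2.84 and 2.43 FPKM at 6 weeks and 0.0834, 0.213 and 0.257 FPKM in naive tumours of hHGF-NSG hosts, and 2.38, 2.38, 2.44 and 2.64 FPKM at 6 weeks and 0.134, 0.251, 0.205 and 0.271 FPKM in naive tumours of NSG hosts. It was higher in all treated libraries than in any naive one. It reached 1 FPKM in 15 treated and 0 naive libraries, and with no minimum its 6-week differences were 1.596 (adjusted p = 1.16e-09) in hHGF-NSG and 1.51 (adjusted p = 2.24e-10) in NSG hosts. COL1A1 had 12.8, 14.9 and 11.8 FPKM at 6 weeks and 31.4, 25.3 and 102 FPKM in naive tumours of hHGF-NSG hosts (-1.65 ± 0.43, adjusted p = 0.00325, and -1.05 with adjusted p = 0.0315 without naive replicate 3), and 10.2, 10.6, 4.68 and 13.1 FPKM at 6 weeks and 30.3, 8.89, 30.8 and 27.6 FPKM in naive tumours of NSG hosts (-1.19 ± 0.38, adjusted p = 0.0105). It was the highest human collagen at 18.0 FPKM on average, against 0.147 FPKM for COL1A2. COL4A5 and COL8A1 fell and COL28A1 rose in all 4 comparisons, the 2-week COL8A1 call in hHGF-NSG hosts ending without naive replicate 3 (-0.50, adjusted p = 0.0505). Among chains that passed the minimum on 1 side only, COL5A1 had at most 0.572 FPKM in treated and 7.67 FPKM in naive libraries. COL7A1 had at most 0.400 FPKM in treated and 2.497 FPKM in naive libraries, and COL5A2 1.57 FPKM in treated and 0.307 FPKM in naive libraries. In the fit with no minimum COL5A1 and COL7A1 were lower and COL5A2 higher in all 4 comparisons, with adjusted p of at most 0.028.

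**Figure D5:**
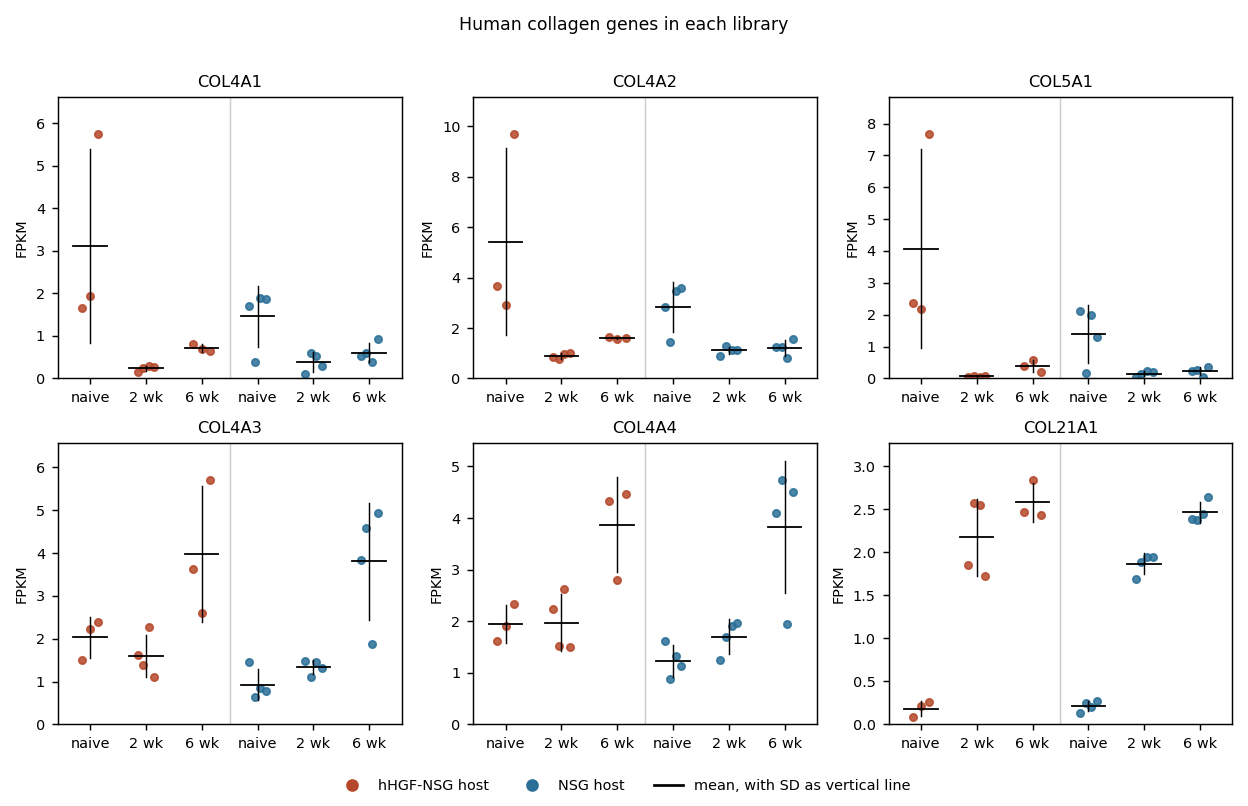
FPKM of 6 human collagen genes in every library (points, linear axes), with the group mean (bar) and SD (line), by weeks of alectinib in hHGF-NSG and NSG hosts. The means of COL4A1, COL4A2 and COL5A1 are lower in the treated groups, with NSG naive replicate 2 among the treated values, COL4A3 and COL4A4 are highest at 6 weeks, and COL21A1 is at 1.69 FPKM or more in all treated libraries.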

How the data were processed

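The 22 samples are xenograft tumour tissue, measured by bulk RNA sequencing. Per the labels' protocols, total RNA came from a TRIzol extraction. The authors deposited FPKM values for human (hg38, GRCh38) and mouse (mm10) genes, per the submitters' processing notes, where DESeq2 also appears, with no role stated. Aligner, annotation release and separation of species: not given in the sources used here. Whole reads could be recovered from the FPKM for 100.0% of values (tolerance 0.05), giving 895826 to 5766509 mouse and 10688632 to 19065656 human reads per library. Library sizes implied by the FPKM were 0.9474 to 1.1063 times the recovered mouse totals and 0.8764 to 1.1113 times the human ones. The FPKM were thus not scaled to these totals.

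Genes with FPKM of 1 or more in at least 3 libraries were tested with limma 3.58.1 on log2(FPKM + 1) with an intensity trend, in 1 fit per table over all 6 groups, two-sided, with p-values adjusted by Benjamini-Hochberg over all genes tested and a threshold of 0.05. Comparisons were each treated group against naive, 6 against 2 weeks, the hosts, and an F-test of the difference in response. Alternatives were a pseudocount of 0.1, no filter, median ratio scaling, the replicate number as a block, limma voom on the recovered reads, reads thinned to the smallest mouse library, and leaving out each library. The fits were tested on simulated data. No 2 libraries of a group agreed within sampling noise (lowest chi-square per degree of freedom 3.95).

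Values in every library are given for Col1a1, Col1a2, Col3a1, Col4a1 and Col4a2. They are also given for most of the 3 most abundant genes of each class. The same holds for most called members with the largest differences, up to 3 per direction and comparison. Col8a1 and Col16a1 have values for some groups only, and Col4a5 and Col6a5 have differences without library values. Pathway genes named are the called ones with the largest differences. The members and lists were chosen with earlier results of these data known.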

Additional observations from a re-analysis of the deposited data

Results flagged for a closer look

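The 2-week groups, the mouse groups of 4 libraries, were screened for a library far from the other 3, for each of the 30 collagens and the 4 class sums in both hosts. In 5 of 68 sets the gap passed the 95% critical value of Dixon's test, which chance passes in about 1 in 20 sets. In hHGF-NSG hosts at 2 weeks, Col3a1 (type III collagen) had 3194.8 FPKM in replicate 1, against 1068.2 to 1158.3 FPKM in the other 3 libraries. Col8a2 (a short-chain collagen) had 47.497 FPKM in replicate 4 of that group, against 16.638 to 19.525 FPKM. Col20a1 (a FACIT collagen) had 1.9502 FPKM in replicate 3 of that group, against 1.168 to 1.1902 FPKM. In NSG hosts at 2 weeks, Col20a1 had 1.6815 FPKM in replicate 1, against 0.58419 to 0.59901 FPKM, and Col28a1 had 0.52601 FPKM in replicate 4, against 0.23553 to 0.27224 FPKM. No cause was tested. No collagen moved one way in every library of one host and the other way in every library of the other, and the interaction test called 0 of 30 (limma, 0 at an unadjusted p under 0.05, 0 with voom).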

How the results depend on the processing

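No called collagen changed direction under any alternative, in either table. Of 56 mouse calls, 51 were kept with a pseudocount of 0.1, 42 without the filter, 56 with median ratio scaling, 56 with limma voom on recovered reads and 39 with reads thinned to the smallest library, and of 54 human calls 52, 48, 54 and 53 for the first 4 of these. Median ratio scaling shifted all human libraries by the same log2 value (-0.0113) and mouse libraries by -0.0083 to -0.0348. The calls it kept were thus close to fixed in advance and say little about normalization. Counts of mouse calls moved by over 1.5 times in these settings: for 2 weeks against naive in hHGF-NSG hosts to 6 without the filter and 3 with thinned reads (10 as reported), for 6 against 2 weeks to 5 without the filter in NSG hosts (9 as reported) and to 2 without it and 2 with thinned reads in hHGF-NSG hosts (4 as reported, thinning chosen for it after seeing the data), and for the hosts at 2 weeks to 1 with voom (0 as reported). The human count for 6 weeks in NSG hosts was 20 without the filter and 13 with it, the unfiltered count covering all 44 genes. Class sums moved by less than the spread between libraries under median ratio scaling and without any 1 library, both chosen after seeing the data. With shifts this small, median ratio scaling could move the sums little.

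Leaving out each library in turn gave 3 to 11 mouse calls at 2 weeks and 11 to 17 at 6 weeks against naive in hHGF-NSG hosts, and 6 to 9 and 9 to 12 in NSG hosts. For 6 against 2 weeks it gave 1 to 6 calls in hHGF-NSG and 3 to 10 in NSG hosts, and for the hosts at 2 weeks 0 to 1. Counts moved by over 1.5 times at 2 weeks in hHGF-NSG hosts without naive replicate 1 or 2 (5 each) or 3 (3), or 2-week replicate 1 (4) or 3 (5). For 6 against 2 weeks they did so in NSG hosts without 2-week replicate 2 (4) or 6-week replicate 1 (3), 2 or 3 (5 each). In hHGF-NSG hosts they did so without 2-week replicate 1 or 4 or 6-week replicate 2 or 3 (1 each), 2-week replicate 2 (2) or NSG 6-week replicate 2 (2). Human counts were 13 to 14 at 2 weeks and 12 to 15 at 6 weeks in hHGF-NSG hosts, and 10 to 13 and 13 to 16 in NSG hosts. Without the library labelled NSG naive replicate 1, 2 rose and 6 fell at 2 weeks and 11 fell at 6 weeks in NSG hosts.

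Samples share only replicate numbers: deviations of same-numbered mouse samples correlated between -0.132 and 0.107 over 43 pairs, and human ones between -0.329 and 0.265 over 51 pairs. With the replicate number as a block, 45 of 56 mouse and 52 of 54 human calls were kept, and the count for 6 against 2 weeks in hHGF-NSG hosts was 1. The causes of these changes were not tested. Mouse depth, 895826 reads at the least, limits what can be seen of genes near 1 FPKM.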
